A study of Mus musculus with 36 samples.

Results

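The small leucine-rich proteoglycans described here are 9 secreted matrix proteins encoded by Dcn, Bgn, Lum, Fmod, Ogn, Omd, Aspn, Prelp and Podn. They were chosen by gene symbol, as 9 of the 55487 genes in the count table, and all 9 passed the filter on low counts that left 15489 genes for testing. mRNA levels were measured by RNA-seq in 36 libraries of mouse embryonic fibroblasts (MEFs), primary cells grown from mid-gestation embryos after removal of the head and organs, that were treated for 5 h with vehicle or with 1 µM dexamethasone (Dex), a synthetic ligand of the glucocorticoid receptor (GR). Run 1 held 3 vehicle and 3 Dex libraries each of GRwt/wt, GRD/D, GRD+L/D+L and GRko/ko, and run 2 held 3 of each of GRwt/wt and GRL/L. The wild type of each run is therefore a separate group of 3 libraries per treatment. GRD carries a point mutation in the dimer interface of the DNA-binding domain, GRL one in the ligand-binding domain, and GRD+L both, each homozygous in the cells. The GRL and GRD+L lines were made by genome editing. GRko/ko cells are GR knockouts and came from intercrosses that the methods place on a 129 background, whereas the labels give FVB/NJ for every library. The methods state that the 3 cultures of a genotype came from different mice. Whether the 3 libraries of a group came from different embryos was not tested here. By the sex-linked genes given below, all libraries of a genotype within a run were of the same sex. The SEs and p values measure the spread between libraries. If these shared an embryo, that is not the spread between embryos.

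Small leucine-rich proteoglycans consist of a core of leucine-rich repeats, to which chondroitin sulfate, dermatan sulfate or keratan sulfate chains are attached in most members. They bind collagen fibrils and limit fibril thickness, and they hold growth factors such as TGF-β in the matrix. Dcn (decorin), Bgn (biglycan) and Aspn (asporin) form class I, Fmod (fibromodulin), Lum (lumican), Prelp and Omd (osteomodulin, also called osteoadherin) class II, Ogn (osteoglycin, also called mimecan) class III and Podn (podocan) class V. Fibroblasts are a main source of these proteins, and glucocorticoids are known to lower matrix synthesis in connective tissue.

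The library totals ranged from 15280166 to 19102035 counts in run 1 and from 21532686 to 28662608 in run 2. Nr3c1, the gene for GR, stood at 16.6 ± 1.16 CPM (SD, n = 3) in vehicle-treated GRko/ko, against 70.2 ± 3.67 CPM in GRwt/wt of run 1. CPM denotes read counts per 1000000 counts of the library, with library sizes scaled by the TMM method. All 8 fibroblast markers were detected in every group, with summed levels of 26379 to 48183 CPM. The libraries of GRwt/wt and GRD/D of run 1 expressed Xist and almost no Y-linked genes, while those of GRD+L/D+L, GRko/ko and both groups of run 2 expressed Y-linked genes. In run 1, the genotypes GRD+L/D+L and GRko/ko thus cannot be told apart from the sex of the embryos when set against GRwt/wt. For GRko/ko the same may hold for the strain background, on which the methods and the labels differ. GRko/ko replicate 3 stood apart, with a summed level of 10 cartilage markers of 579 CPM in the vehicle library against 246 and 182 CPM in the other two. Its Dex library did not stand apart by these markers, at 184 CPM against 186 and 223 CPM. Dex replicate 4 of GRwt/wt in run 2 also stood apart. Its median squared difference per gene from the other Dex libraries was 7.46 and 8.61 times that of sampling noise, against 1.65 between those, and the next highest value in any group was 6.76, between vehicle replicates 2 and 3 of GRD/D.

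Bgn was by far the most abundant member. Per kilobase of exon, it reached 816 ± 11.5 CPM/kb (SD, n = 3) in vehicle-treated GRwt/wt of run 1 and 942 ± 30.3 CPM/kb in run 2. Aspn ranked second, with 31.1 ± 2.11 CPM/kb in run 1 and 172 ± 21.5 CPM/kb in run 2, and Omd ranked last with 0.0876 ± 0.0273 and 1.88 ± 0.232 CPM/kb. Between them, the order of the mean levels per length differed by run. Fmod and Dcn followed Aspn in run 1, at 24.6 ± 2.24 and 14.03 ± 0.657 CPM/kb, and Dcn and Lum did so in run 2, at 104 ± 4.58 and 85.7 ± 2.19 CPM/kb. Bgn made up 93.5 to 96.1% of the members' summed CPM across the groups of run 1 and 72.9 to 77.2% in run 2.

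**Figure D1:**
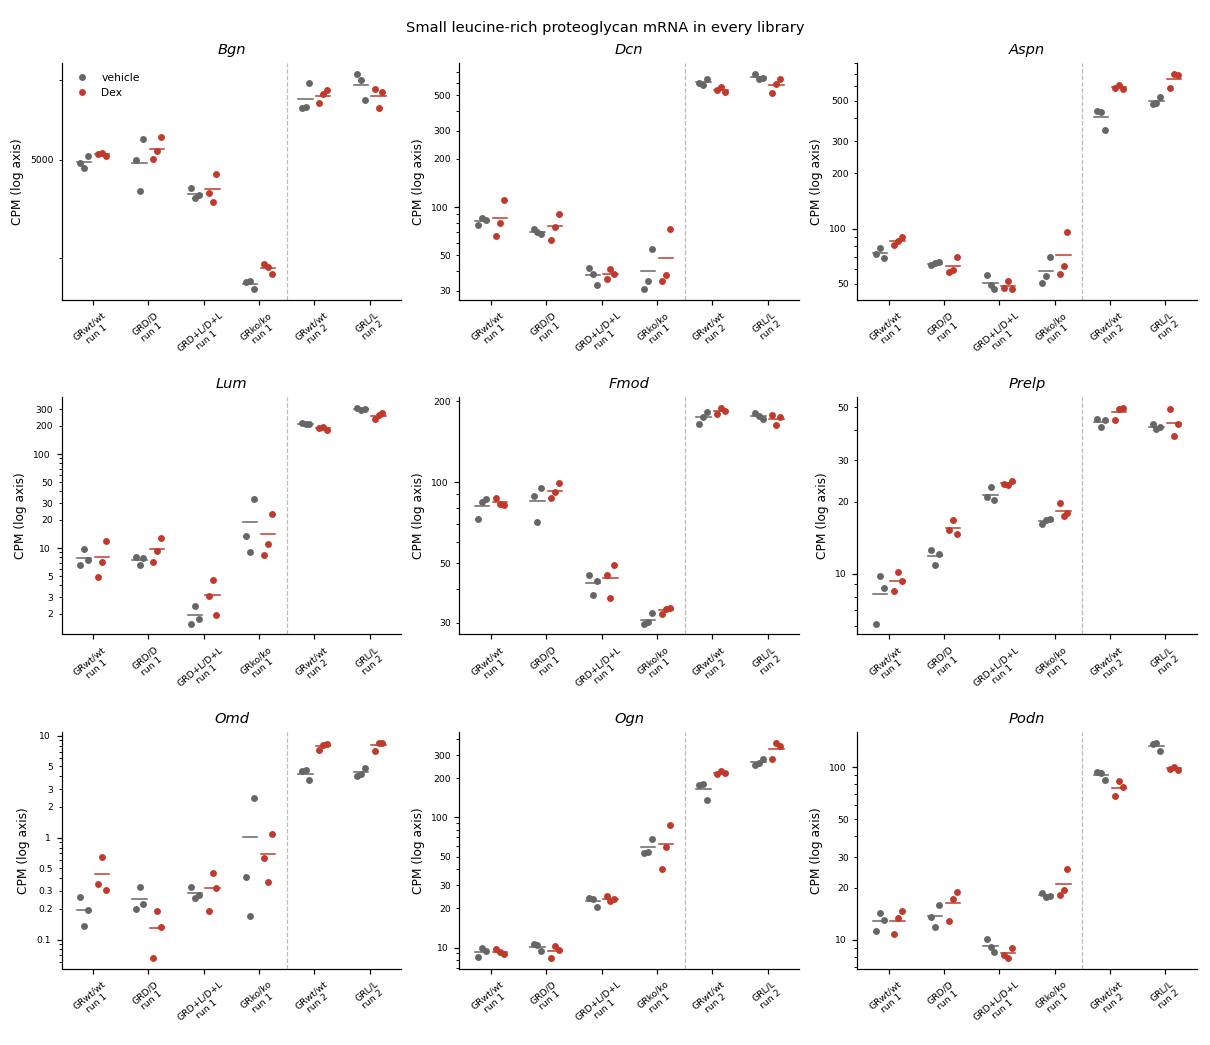
Levels of the 9 members in all 36 libraries, in CPM on logarithmic axes whose ranges differ between panels. Each point is 1 library, grey for vehicle and red for Dex, short lines are group means (n = 3), and the dashed line separates run 1 from run 2. Lum reached 206 to 216 CPM in vehicle-treated GRwt/wt of run 2 and 6.68 to 9.66 CPM in run 1, whereas Bgn spanned 5635 to 5960.5 CPM and 4911 to 5049.6 CPM.

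Every member was higher in the wild type of run 2 than in that of run 1. In vehicle-treated GRwt/wt, 9 of 9 members were higher in run 2 and 0 were lower, where 40.2% of all genes tested were called higher and 32.2% lower (edgeR's quasi-likelihood test, Benjamini-Hochberg adjusted p of at most 0.05, the rule for every call here). Dcn, which binds collagen and TGF-β, measured 77.6, 84.95 and 83.2 CPM in run 1 and 598, 583 and 635 CPM in run 2. Lum, a keratan sulfate proteoglycan known from the cornea, measured 6.68, 9.66 and 7.40 CPM in run 1 and 216, 206 and 207 CPM in run 2. For both genes, each library of run 2 lay far above each library of run 1, with log2 differences of 2.89 ± 0.17 (SE, adjusted p = 5.30e-17) for Dcn, and 4.73 ± 0.27 (SE, adjusted p = 8.47e-18) for Lum. Bgn differed least, by 0.21 ± 0.04 (SE, adjusted p = 1.10e-05), which is 1.16-fold. The other 6 members differed by 1.10 (Fmod) to 4.38 (Omd) on the log2 scale, and the median over all genes was 0.09. The runs used different embryos of different sex, so that run, culture and sex cannot be told apart in this contrast, nor, as in every result from bulk RNA, can fewer cells of a type and less RNA per cell. Marker levels moved with the run as well. The summed level of 4 tendon markers was 104 to 115 CPM in run 2 and 14.6 to 16.03 CPM in run 1, that of the cartilage markers 70.4 to 84.3 against 20.3 to 21.9 CPM, and that of 7 skeletal muscle markers 25.2 to 26.7 against 676 to 781 CPM. Of the 7 muscle markers, 4 were detected in these libraries of run 1, without Myod1, Myf5 and Ckm. In run 2, 6 were detected, without Pax7, so that the muscle sum does not stand for every marker of its list. The part of these marker levels in the difference between runs was not tested. All further comparisons of genotypes were made within a run.

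Dex raised Aspn, Omd and Ogn and lowered Podn in GRwt/wt of run 2. Of the 9 members, 3 were raised, where 14.9% of all genes tested were, and 1 was lowered, where 16.7% were. Aspn, a class I member that binds collagen and TGF-β, measured 437, 432 and 347 CPM with vehicle and 585, 612 and 583 CPM with Dex. The Dex libraries all lay above the vehicle libraries, of which replicate 6 was the lowest. The log2 fold change was 0.55 ± 0.11 (SE, adjusted p = 9.65e-05), that is 1.46-fold, and Aspn passed in all 13 alternative fits of this contrast, with an adjusted p of at most 0.00268. Omd, the least abundant member, which is best known from bone, measured 4.48, 4.60 and 3.64 CPM with vehicle and 7.17, 8.17 and 8.38 CPM with Dex. The groups did not overlap, and the log2 fold change of 0.90 ± 0.20 (SE, adjusted p = 6.34e-04) was the largest of the members in this contrast. With DESeq2 it was 0.91 at an adjusted p of 0.101 and no longer passed. Ogn measured 176, 179 and 136 CPM with vehicle and 214, 226 and 219 CPM with Dex. Its groups did not overlap either, and replicate 6 was again the lowest vehicle library. The log2 fold change was 0.42 ± 0.13 (SE, adjusted p = 0.00964), and without that library 0.31 at an adjusted p of 0.0920. Vehicle replicate 6 also carried a summed level of 4 epithelial markers of 47.3 CPM, against 2.15 CPM in each of the other two vehicle libraries, and the part of this in the Ogn and Aspn values was not tested.

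Podn, known to restrain smooth muscle growth and migration, was the only member lowered by Dex in GRwt/wt of run 2. It measured 92.97, 91.9 and 83.9 CPM with vehicle and 67.8, 82.7 and 76.9 CPM with Dex, and the groups did not overlap. The log2 fold change was small, at −0.24 ± 0.09 (SE, adjusted p = 0.0299), and 5 of 13 alternative fits left it short of the threshold, among them DESeq2 with an adjusted p of 0.0690 and the fits without Dex replicate 4, the lowest library and the one that stood apart (0.179), vehicle replicate 4 (0.110) or vehicle replicate 5 (0.0953). Without Dex replicate 4, Aspn, Omd and Ogn still passed, at 2.41e-04, 8.06e-04 and 0.0149. The summed level of 4 adipocyte markers was 30.7 to 33.7 CPM with vehicle and 71.01 to 87.2 CPM with Dex. It also rose in GRL/L, from 14.2 to 16.2 CPM to 34.6 to 38.02 CPM. In GRwt/wt of run 1, where no member was called, it rose from 3.63 to 4.80 CPM to 13.6 to 16.9 CPM, with 2 of the 4 markers detected with Dex. The part of these markers in the changes was not tested. The remaining 5 members did not pass in GRwt/wt of run 2. Dcn and Lum had log2 fold changes of −0.16 ± 0.15 (SE, adjusted p = 0.473) and −0.16 ± 0.19 (SE, adjusted p = 0.564), although every Dex library lay below every vehicle library for both. Without a filter on low counts they passed at 0.0153 and 0.0302. Bgn, Fmod and Prelp had log2 fold changes of 0.01, 0.08 and 0.14. For Bgn the 95% interval was narrow, from −0.07 to 0.09.

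In GRL/L of the same run, Dex raised Aspn and Omd and lowered Podn. Thus 2 of 9 members were raised, where 8.79% of all genes tested were, and 1 was lowered, where 10.4% were. Aspn measured 478, 487 and 521 CPM with vehicle and 587, 701 and 689 CPM with Dex, a log2 fold change of 0.41 ± 0.11 (SE, adjusted p = 0.00405). Omd measured 4.06, 4.21 and 4.85 CPM with vehicle and 7.04, 8.56 and 8.52 CPM with Dex, a log2 fold change of 0.88 ± 0.20 (SE, adjusted p = 0.00111). Neither gene's groups overlapped, and Dex replicate 1 was the lowest Dex library for both. Omd again did not pass with DESeq2, at an adjusted p of 0.158. Podn fell from 136, 138 and 123 CPM to 97.5, 101 and 96.3 CPM, a log2 fold change of −0.43 ± 0.08 (SE, adjusted p = 1.66e-04), and its groups were clearly separate. This call held in all 13 alternative fits. Ogn measured 251, 262 and 283 CPM with vehicle and 279, 375 and 355 CPM with Dex, so that Dex replicate 1 lay within the vehicle range. Its log2 fold change of 0.34 ± 0.13 (SE, adjusted p = 0.0516) narrowly missed the threshold, and without Dex replicate 1 it was 0.46 at an adjusted p of 0.0127. Lum measured 307, 291 and 304 CPM with vehicle and 237, 262 and 272 CPM with Dex, without overlap, and its log2 fold change was −0.23 ± 0.18 (SE, adjusted p = 0.466). When only the libraries of the contrast were fitted, Lum passed at 0.00115 and Dcn at 0.0251, and without a filter on low counts at 4.60e-04 and 0.00780.

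**Figure D2:**
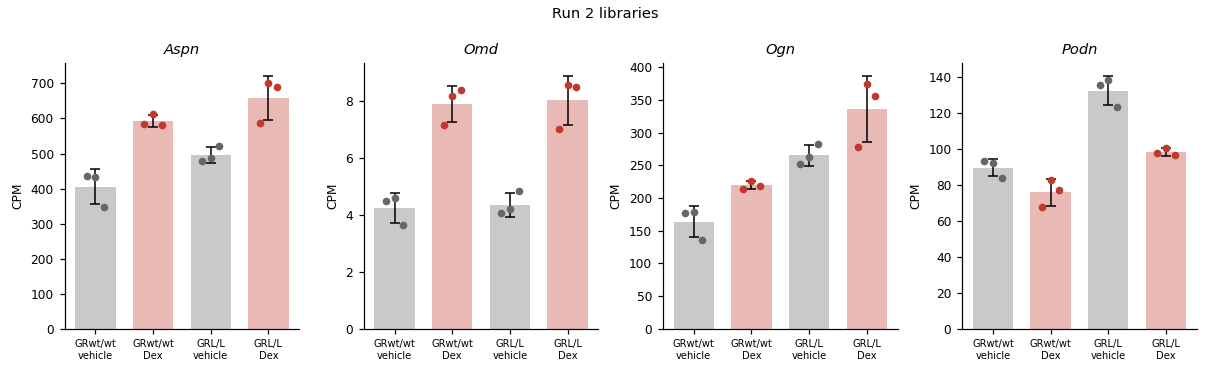
Aspn, Omd, Ogn and Podn in the 12 libraries of run 2, in CPM on linear axes from 0. Bars are means, error bars SD (n = 3), points single libraries, grey vehicle and red Dex. The Dex libraries lie above the vehicle libraries for Aspn and Omd in both genotypes and below them for Podn, and GRL/L starts from a higher Podn level (123 to 138 CPM) than GRwt/wt (83.9 to 92.97 CPM).

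Aspn, Omd and Ogn are neighbours on the same strand of mouse chromosome 13 (mm10, GENCODE M21: Aspn chr13:49544443-49567565, Omd chr13:49582462-49592822, Ogn chr13:49608046-49624501), each within the span of Cenpp on the opposite strand, with which Aspn shares 7 exonic bases and the others 0. These 3 genes were called as raised by Dex together only in GRwt/wt of run 2, where the Ogn call was lost without vehicle replicate 6. In GRL/L Ogn missed the threshold. The 250 bases before the start sites of the 3 genes and before the first of the 2 start sites of Podn are shown. They read 5′ to 3′ on the gene's strand (RefSeq, GRCm38.p6), with matches to 4 searched motifs in capitals.
Aspn (chr13:49544193-49544442, +): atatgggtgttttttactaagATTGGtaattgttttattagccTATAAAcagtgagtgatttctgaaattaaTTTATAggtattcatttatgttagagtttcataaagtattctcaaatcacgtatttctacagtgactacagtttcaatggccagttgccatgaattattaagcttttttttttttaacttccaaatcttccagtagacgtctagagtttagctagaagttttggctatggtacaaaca
Omd (chr13:49582212-49582461, +): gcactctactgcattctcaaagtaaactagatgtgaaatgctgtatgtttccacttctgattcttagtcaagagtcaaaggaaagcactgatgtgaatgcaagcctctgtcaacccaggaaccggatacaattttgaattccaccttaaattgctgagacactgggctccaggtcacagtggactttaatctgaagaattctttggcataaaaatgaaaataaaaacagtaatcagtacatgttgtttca
Ogn (chr13:49607765-49608014, +): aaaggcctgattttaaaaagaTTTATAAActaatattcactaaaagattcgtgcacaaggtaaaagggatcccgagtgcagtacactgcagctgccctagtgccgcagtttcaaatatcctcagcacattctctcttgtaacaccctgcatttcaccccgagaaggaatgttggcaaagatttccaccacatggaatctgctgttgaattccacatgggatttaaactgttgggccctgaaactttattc
Podn (chr4:108031955-108032204, −): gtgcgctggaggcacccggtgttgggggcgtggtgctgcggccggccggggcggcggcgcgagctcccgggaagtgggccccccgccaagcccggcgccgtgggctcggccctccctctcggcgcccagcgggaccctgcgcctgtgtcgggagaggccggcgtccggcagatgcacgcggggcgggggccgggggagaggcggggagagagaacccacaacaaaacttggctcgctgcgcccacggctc
The motifs, searched on both strands, were the GR half-site AGAACA, held by 16.1% of 32851 RefSeq promoters of this length, the AP-1 site TGANTCA (6.75%), TATAAA (12.4%) and CCAAT (33.8%). The capitals mark 2 TATAAA matches in Aspn, 2 in Ogn that overlap each other on opposite strands, and 1 CCAAT match on the opposite strand in Aspn, and Omd and Podn held none of the 4. Among the 7 members with an entry, the GR half-site was found once, in Bgn. GC content was 30.0% in the Aspn, 38.4% in the Omd and 42.0% in the Ogn window, against 78.0% in that of Podn and a median of 52.4% over all promoters. The Podn values hold for the RefSeq start shown, as GENCODE M21 places the 5′ end of Podn further upstream, at chr4:108096445.

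In GRwt/wt of run 1, where the members stood lower, none was called with Dex. There 0 of 9 members passed, where 13.9% of all genes tested did, and 0 passed with DESeq2 or at an unadjusted p below 0.05. Aspn measured 72.3, 78.4 and 68.6 CPM with vehicle and 80.9, 85.4 and 90.01 CPM with Dex, so that all Dex libraries lay above all vehicle libraries, as in run 2. Its log2 fold change was 0.22 ± 0.12 (SE, adjusted p = 0.257). It passed at 0.00614 when only these 6 libraries were fitted, at 0.00214 without a filter on low counts, at 0.0389 with a replicate block and at 2.85e-04 with the study's formula, in which both wild types are 1 condition. The other abundant members had log2 fold changes near 0, of 0.06 for Dcn, 0.03 for Bgn and 0.05 for Fmod. Ogn measured 8.43, 10.00 and 9.34 CPM with vehicle and 9.69, 9.21 and 8.84 CPM with Dex, and Podn 11.3, 14.3 and 12.97 CPM and 10.8, 13.3 and 14.6 CPM, with overlap in both. Omd, at 0.137 to 0.260 CPM with vehicle and 0.307 to 0.648 CPM with Dex, rested on a handful of reads per library, and its log2 fold change of 1.10 ± 0.80 (SE, adjusted p = 0.439) could not be resolved from so few reads.

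In GRD/D, Prelp was the only member called. Prelp, a class II member with a basic, heparin-binding amino terminus that anchors basement membranes, measured 12.6, 10.9 and 12.1 CPM with vehicle and 15.2, 16.7 and 14.7 CPM with Dex, without overlap. The log2 fold change was 0.40 ± 0.11 (SE, adjusted p = 0.0110). It was thus 1 of 9 members raised and 0 lowered, where 5.63% and 6.24% of all genes tested were. The call was lost without Dex replicate 2 (adjusted p = 0.0841) or vehicle replicate 2 (0.0760). Prelp also lay higher with Dex, without overlap but short of the threshold, in GRD+L/D+L and GRko/ko. The ranges were 20.3 to 23.2 CPM with vehicle and 23.5 to 24.6 CPM with Dex in GRD+L/D+L, and 16.2 to 17.00 and 17.4 to 19.8 CPM in GRko/ko. In GRwt/wt of run 1 they overlapped, at 6.16 to 9.73 and 8.45 to 10.1 CPM. Aspn in GRD/D measured 62.8, 64.9 and 65.3 CPM with vehicle and 58.1, 59.2 and 69.4 CPM with Dex, with overlap and a log2 fold change of −0.05 ± 0.12 (SE, adjusted p = 0.863).

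In GRD+L/D+L 0 of 9 members passed, where 5.00% of all genes tested did, and 0 passed with DESeq2 or at an unadjusted p below 0.05. Aspn measured 55.8, 49.2 and 46.6 CPM with vehicle and 47.6, 51.4 and 46.8 CPM with Dex, and its 95% interval was −0.32 to 0.21 on the log2 scale. In GRko/ko 0 of 9 members and 0% of all genes tested passed with edgeR, and 0 members with DESeq2, which called 1 gene in all. At an unadjusted p below 0.05, 1 member was found, Aspn, with 50.4, 54.7 and 70.2 CPM with vehicle and 56.7, 62.1 and 95.9 CPM with Dex and a log2 fold change of 0.29 ± 0.12 (SE, adjusted p = 0.796). Replicate 3 was the highest library of its group in both treatments.

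**Figure D3:**
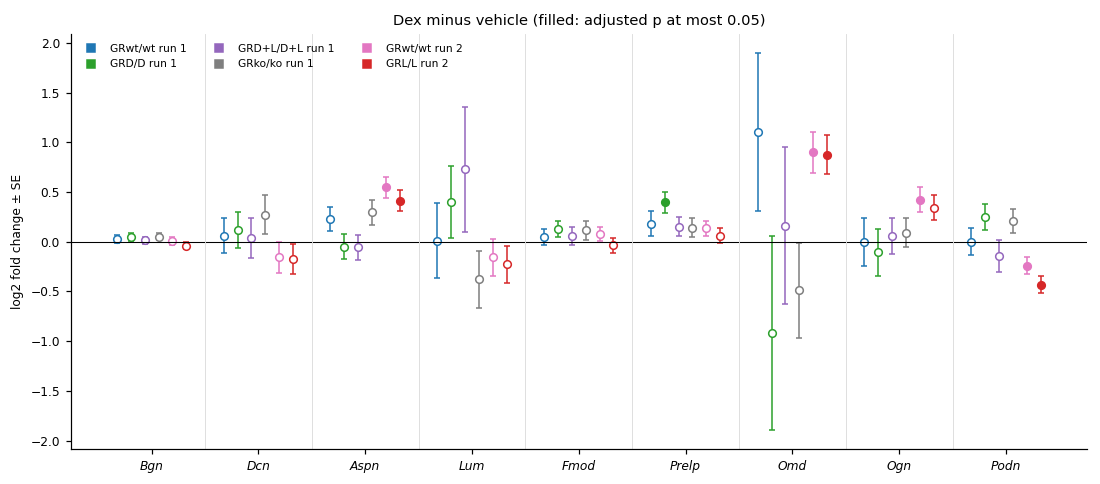
Dex response of each member in the 6 genotype and run combinations, as the log2 fold change of Dex over vehicle with its approximate SE (n = 3 against 3). Filled points passed an adjusted p of at most 0.05 and open points did not. Filled points occur for Aspn and Omd (0.55 and 0.90 in GRwt/wt, 0.41 and 0.88 in GRL/L), Ogn (0.42 in GRwt/wt) and Podn (−0.24 and −0.43) in run 2 and for Prelp (0.40) in GRD/D.

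A call in one genotype and not in another does not show that the responses differ, so the differences themselves were tested. None of the 9 members passed in any of the 5 tests, by edgeR, by DESeq2 or at an unadjusted p below 0.05. Of all genes tested, 3.29% passed for GRD/D, 3.23% for GRD+L/D+L and 8.48% for GRko/ko against GRwt/wt of run 1, 1.85% for GRL/L against GRwt/wt of run 2 and 7.09% for GRwt/wt of run 2 against run 1. For Aspn the response in GRL/L minus that in GRwt/wt was −0.14 ± 0.15 (SE, adjusted p = 0.790), with a 95% interval of −0.44 to 0.17. For Podn it was −0.19 ± 0.12 (SE, adjusted p = 0.555), with an interval of −0.44 to 0.05. The Aspn response of GRD/D and of GRD+L/D+L lay below that of GRwt/wt in run 1 by similar amounts, with intervals of −0.63 to 0.08 and −0.64 to 0.08, and the difference for GRD+L/D+L passed at 0.0380 when only the libraries compared were fitted. Between the wild types of the runs, the Aspn response differed by 0.32 ± 0.16 (SE, adjusted p = 0.284), and that of Ogn by 0.42 ± 0.28 (SE, adjusted p = 0.458). Each GRwt/wt group served in every test of its run.

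Vehicle levels in GRL/L against GRwt/wt of run 2 passed the threshold for Ogn and Podn. Ogn measured 251, 262 and 283 CPM in GRL/L and 176, 179 and 136 CPM in GRwt/wt, and Podn 136, 138 and 123 CPM and 92.97, 91.9 and 83.9 CPM. Neither overlapped, and the log2 differences were 0.70 ± 0.13 (SE, adjusted p = 1.65e-04) for Ogn and 0.56 ± 0.08 (SE, adjusted p = 8.43e-06) for Podn, in each of the 12 alternative fits past the threshold. Thus 2 of 9 members were higher and 0 lower, where 6.88% and 4.47% of all genes tested were. Lum, at 307, 291 and 304 CPM in GRL/L and 216, 206 and 207 CPM in GRwt/wt, did not overlap either but missed the threshold (log2 difference 0.52 ± 0.18 SE, adjusted p = 0.0639), and passed at 3.62e-07 when only these libraries were fitted. Aspn (478 to 521 and 347 to 437 CPM) and Dcn (636 to 680 and 583 to 635 CPM) also lay higher in GRL/L without overlap and did not pass. Aspn passed at 0.00821 when only these libraries were fitted and at 4.69e-06 without a filter on low counts. Dex-treated GRL/L held 98.2 ± 2.25 CPM of Podn and Dex-treated GRwt/wt 75.8 ± 7.50 CPM (SD, n = 3). The cartilage markers summed to 117 to 120.2 CPM in GRL/L and 70.4 to 84.3 CPM in GRwt/wt, and 8 macrophage markers to 788 to 933 and 454 to 479 CPM. The tendon markers summed to 161 to 169 and 104 to 115 CPM and the adipocyte markers to 14.2 to 16.2 and 30.7 to 33.7 CPM. None of these ranges overlapped, and their part in these differences was not tested.

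GRD/D, of the same sex as GRwt/wt in run 1, passed the threshold for Prelp alone. Prelp measured 12.6, 10.9 and 12.1 CPM in GRD/D and 6.16, 9.73 and 8.69 CPM in GRwt/wt, with no overlap and a log2 difference of 0.53 ± 0.12 (SE, adjusted p = 0.00231). This was 1 of 9 members higher and 0 lower, where 5.66% and 3.89% of all genes tested were. The call was lost without GRwt/wt replicate 1, the lowest library (adjusted p = 0.0596), and when only these libraries were fitted (0.0858). Dcn and Aspn lay lower in GRD/D without overlap but did not pass. Dcn measured 67.9 to 72.7 CPM in GRD/D and 77.6 to 84.95 CPM in GRwt/wt, and Aspn 62.8 to 65.3 and 68.6 to 78.4 CPM. Without a filter on low counts they passed at 0.00421 and 0.0478. Prelp shares 350 exonic bases with Gm15851 on the opposite strand, and whether reads were counted by strand is not given in the sources used here. The macrophage markers summed to 619 to 692 CPM in GRD/D and 172 to 298 CPM in GRwt/wt. Their part in the Prelp difference was not tested.

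GRD+L/D+L and GRko/ko shared lower Dcn and Fmod and higher Ogn and Prelp than GRwt/wt of run 1. In GRD+L/D+L, 2 of 9 members were higher, where 13.9% of all genes tested were, and 6 were lower, where 15.9% were. In GRko/ko, 5 of 9 were higher, where 24.4% were, and 4 were lower, where 21.3% were. Both comparisons share the GRwt/wt libraries, and in both the sex of the embryos differs with the genotype. By the methods, though not by the labels, GRko/ko may also differ from GRwt/wt in strain background, whose part was not tested.

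Dcn measured 41.8, 38.2 and 32.4 CPM in GRD+L/D+L and 30.7, 34.6 and 54.99 CPM in GRko/ko, all below the lowest GRwt/wt library. The log2 differences from GRwt/wt were −1.13 ± 0.19 (SE, adjusted p = 1.30e-05) and −1.04 ± 0.19 (SE, adjusted p = 1.57e-05). Fmod, a keratan sulfate proteoglycan that guides collagen cross-linking, measured 45.2, 37.9 and 42.9 CPM in GRD+L/D+L and 29.8, 30.2 and 32.6 CPM in GRko/ko, against 72.99, 84.5 and 86.9 CPM in GRwt/wt. The groups were separate in each case, and the log2 differences of −0.95 ± 0.09 (SE, adjusted p = 3.85e-11) and −1.40 ± 0.09 (SE, adjusted p = 3.99e-16) held in all alternative fits, as did those of Dcn.

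Ogn rose in steps, from 8.43, 10.00 and 9.34 CPM in GRwt/wt to 23.8, 23.7 and 20.5 CPM in GRD+L/D+L and 53.5, 54.4 and 68.1 CPM in GRko/ko, without overlap between these 3 groups, while GRD/D (9.32 to 10.6 CPM) overlapped with GRwt/wt. The log2 differences from GRwt/wt were 1.29 ± 0.21 (SE, adjusted p = 9.33e-06) and 2.66 ± 0.19 (SE, adjusted p = 1.46e-14), the latter 6.33-fold and the largest vehicle difference of a member within a run. Prelp followed another order, with 20.9, 23.2 and 20.3 CPM in GRD+L/D+L and 16.2, 16.8 and 17.00 CPM in GRko/ko, so that GRD+L/D+L was the highest, GRko/ko next, then GRD/D and GRwt/wt, with no overlap between neighbours. Its log2 differences from GRwt/wt were 1.40 ± 0.11 (SE, adjusted p = 1.80e-12) and 1.03 ± 0.11 (SE, adjusted p = 1.27e-09).

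Podn and Lum went opposite ways in the fits of the 2 genotypes. Podn measured 10.04, 9.08 and 8.50 CPM in GRD+L/D+L, below GRwt/wt (log2 difference −0.48 ± 0.15 SE, adjusted p = 0.0127), and 18.6, 17.8 and 18.02 CPM in GRko/ko, above it (log2 difference 0.50 ± 0.13 SE, adjusted p = 0.00185). The first of these calls was lost without GRD+L/D+L replicate 3 (adjusted p = 0.0562) or GRwt/wt replicate 2 (0.0725). Lum measured 1.58, 2.43 and 1.77 CPM in GRD+L/D+L, below every GRwt/wt library, with a log2 difference of −2.03 ± 0.52 (SE, adjusted p = 0.00260). In GRko/ko Lum measured 13.5, 9.18 and 33.6 CPM, where replicate 3 stood far above the others and replicate 2 lay within the GRwt/wt range. The log2 difference of 1.23 ± 0.33 (SE, adjusted p = 0.00205) became 0.52 at an adjusted p of 0.167 without replicate 3. Omd rested on the same library. It measured 0.412, 0.170 and 2.47 CPM in GRko/ko, and its log2 difference of 2.26 ± 0.66 (SE, adjusted p = 0.00458) became 0.52 at an adjusted p of 0.557. The cartilage markers were highest in the same library, as were 6 bone markers, which summed to 77.6 CPM against 36.3 and 42.4 CPM. In the Dex library of replicate 3, Lum (23.1 CPM) and Omd (1.08 CPM) were again the highest of their group. The cartilage markers there summed to 184 CPM against 186 and 223 CPM, and the bone markers to 39.8 CPM against 36.5 and 42.3 CPM. The part of these markers in the Lum and Omd values was not tested.

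Bgn and Aspn were also lower in both genotypes, by less than Dcn and Fmod. Bgn, an X-linked gene, measured 3788, 3792 and 3723 CPM in GRko/ko and 4967, 4911 and 5049.6 CPM in GRwt/wt, a difference larger than the spread of either group (log2 difference −0.40 ± 0.04 SE, adjusted p = 4.08e-11). In GRD+L/D+L Bgn was at 4694, 4580.4 and 4612 CPM, 1.07-fold below GRwt/wt (log2 difference −0.10 ± 0.04 SE, adjusted p = 0.0370), and 7 of 13 alternative fits left that call short of the threshold. Aspn measured 55.8, 49.2 and 46.6 CPM in GRD+L/D+L (log2 difference −0.53 ± 0.13 SE, adjusted p = 0.00131) and 50.4, 54.7 and 70.2 CPM in GRko/ko (log2 difference −0.33 ± 0.12 SE, adjusted p = 0.0310), where replicate 3 overlapped with GRwt/wt. The GRko/ko call was lost in 5 of 14 alternative fits, with adjusted p values of up to 0.178 without vehicle replicate 1. In GRko/ko the macrophage markers summed to 2537 to 2826 CPM and the cartilage markers to 182 to 579 CPM, against 172 to 298 and 20.3 to 21.9 CPM in GRwt/wt. The tendon markers summed to 29.3 to 37.6 CPM in GRko/ko and 14.6 to 16.03 CPM in GRwt/wt. In GRD+L/D+L the macrophage markers summed to 31.7 to 39.97 CPM, the cartilage markers to 28.9 to 31.3 CPM and the tendon markers to 22.2 to 24.6 CPM. Their part in the levels of both genotypes was not tested.

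**Figure D4:**
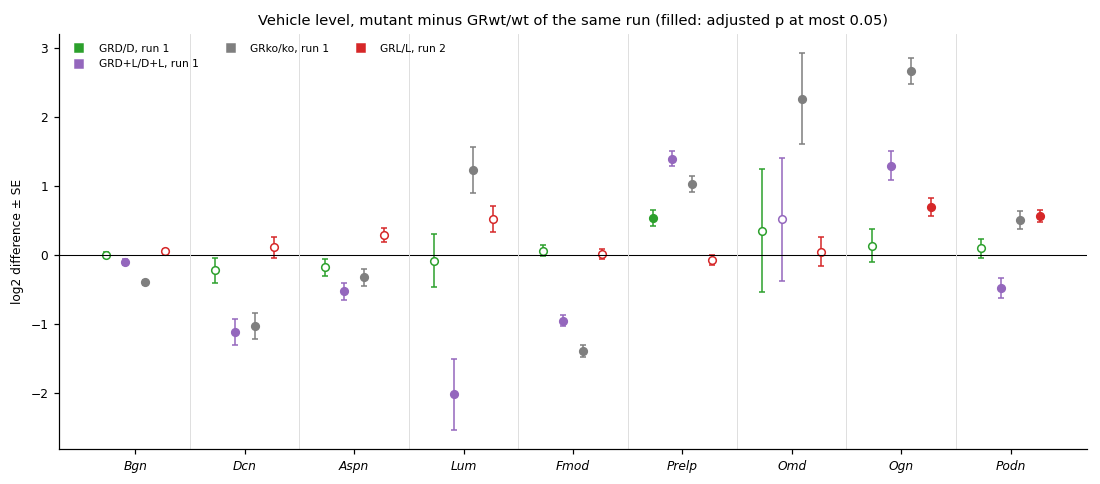
Vehicle level of each member in the mutants against GRwt/wt of the same run, as log2 differences with their approximate SE (n = 3 against 3). Filled points passed an adjusted p of at most 0.05 and open points did not. Ogn and Prelp lie above 0 (2.66 and 1.03 in GRko/ko) and Dcn and Fmod below 0 (−1.04 and −1.40) in GRD+L/D+L and GRko/ko, while GRL/L is filled for Ogn (0.70) and Podn (0.56) and GRD/D for Prelp (0.53).

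The genes that build the chains of these proteoglycans, bind them or cut them were followed as lists. Dex in GRwt/wt of run 2 changed 12 of 22 genes of chondroitin and dermatan sulfate synthesis, with 5 raised and 7 lowered where 14.9% of all genes were raised and 16.7% lowered. The median log2 fold change of the list was −0.03, against −0.01 over all genes. The sulfotransferases Chst13 and Ust rose most, by 1.71 ± 0.45 and 1.43 ± 0.06 (log2 ± SE), and Csgalnact1, which starts the chain, and Xylt1, which adds the linker xylose to the core protein, fell most, at −0.46 ± 0.06 and −0.45 ± 0.09. In GRwt/wt of run 1 the counts were 3 raised and 5 lowered, in GRL/L 3 raised and 6 lowered, in GRD/D 4 raised and 7 lowered and in GRD+L/D+L 2 raised and 3 lowered. Over all genes, 13.9% passed in either direction in GRwt/wt of run 1 and 5.00% in GRD+L/D+L, 8.79% were raised and 10.4% lowered in GRL/L, and 5.63% and 6.24% in GRD/D. Of 8 genes of keratan sulfate synthesis, the chains carried by Lum and Fmod, 1 rose in GRwt/wt of run 2, the galactosyltransferase B4galt1 (0.81 ± 0.05), and 3 fell, led by the sulfotransferases Chst1 (−0.97 ± 0.12) and Chst2 (−0.84 ± 0.05). The same 3 leading genes passed in GRwt/wt of run 1, with log2 fold changes of 0.66, −1.11 and −0.65.

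Of 18 ligands and receptors that small leucine-rich proteoglycans bind, 3 raised and 7 lowered genes passed in GRwt/wt of run 2, where 14.9% of all genes were raised and 16.7% lowered, so that the raised genes were near the share of all genes. Ccn2, the connective tissue growth factor, and Igf1r rose most, by 1.39 ± 0.05 and 0.35 ± 0.09, and Ccn4 and Tlr2, a receptor through which soluble Bgn signals, fell most, at −1.15 ± 0.04 and −0.87 ± 0.09. Of 13 collagens, 3 raised and 2 lowered passed, with Col11a1 at 1.36 ± 0.06 and Col6a2 at 0.47 ± 0.09 on one side and Col5a3 at −0.51 ± 0.10 and Col5a2 at −0.10 ± 0.04 on the other. Of 14 proteinases and cofactors that process the members or their partners, 12 were tested and 5 raised and 5 lowered passed, led by Adamts1 (1.64 ± 0.05) and Tll1 (1.10 ± 0.08) upward and by the aggrecanase Adamts4 (−1.31 ± 0.09) and Mmp3 (−1.17 ± 0.28) downward. In GRwt/wt of run 1 the counts were 4 raised and 5 lowered ligands and receptors, 3 raised and 1 lowered collagens and 4 raised and 1 lowered proteinases, where 13.9% of all genes passed in either direction. Of 10 other family members and close relatives, 8 were tested. Lrrc17 alone passed in GRwt/wt of run 2, at −0.90 ± 0.10, and in GRwt/wt of run 1 the counts were 2 raised and 1 lowered.

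At the vehicle level, the shares of all genes raised and lowered were 5.66% and 3.89% in GRD/D, 13.9% and 15.9% in GRD+L/D+L, 24.4% and 21.3% in GRko/ko, and 6.88% and 4.47% in GRL/L. The collagens were the list with the most calls in GRD+L/D+L, with 1 raised and 10 lowered of 13 and a median log2 difference of −0.74, against −0.01 over all genes. GRko/ko had 5 raised and 5 lowered, GRD/D 1 raised and 4 lowered and GRL/L 2 raised and 0 lowered. The proteinases had 0 raised and 7 lowered in GRD/D, 1 raised and 8 lowered in GRD+L/D+L, 0 raised and 8 lowered in GRko/ko and 2 raised and 1 lowered in GRL/L. The chondroitin and dermatan sulfate genes had 3 raised and 0 lowered, 3 raised and 6 lowered, 4 raised and 9 lowered and 3 raised and 1 lowered in the same order, the keratan sulfate genes 2 raised and 1 lowered, 3 raised and 1 lowered, 2 raised and 3 lowered and 1 raised and 0 lowered, the ligands and receptors 2 raised and 3 lowered, 4 raised and 4 lowered, 10 raised and 6 lowered and 3 raised and 1 lowered, and the other family members 0 raised and 0 lowered, 1 raised and 3 lowered, 3 raised and 2 lowered and 1 raised and 1 lowered.

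The genes whose levels ran most like each member were found by Pearson's correlation over the 12 group means of log2 CPM, each gene centred on the mean of its run, among 11781 genes with a mean of at least 50 counts. These points share libraries and controls, so the coefficients are descriptions. The groups of run 1 also differ in sex, and GRko/ko possibly in strain background, which the coefficients do not separate from genotype. Dcn ran with Fbln1 (0.987), a matrix glycoprotein gene, Kdm5c (0.979) and Col6a3 (0.979), a collagen VI chain. Fmod ran with Zc3hav1 (0.994), Eif2s3x (0.989) and Nsg1 (0.988). Podn ran with Col1a2 (0.962), a collagen I chain, Ttyh3 (0.960) and B4galt6 (0.948). Aspn ran with Deptor (0.943), Galnt17 (0.942) and Fbxo9 (0.941), Ogn with Sspn (0.988), Sft2d2 (0.983) and Itih2 (0.981), and Omd with Angpt1 (0.943), Ankrd29 (0.925) and Pawr (0.923). In run 1 the Omd values rest on 1 to 11 reads per library, apart from GRko/ko replicate 3 with 39 (vehicle) and 18 (Dex). Bgn ran with Rsad1 (0.993), Pdia5 (0.989) and Pianp (0.987), Lum with Agap1 (0.987) and Pgm2l1 (0.985), and Prelp with Upk1b (0.945), Ndufa13 (0.942) and Med28 (0.942).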

How the data were processed

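Per the labels and the study's methods, the authors made TruSeq libraries of total RNA and ran them on a NextSeq. Reads were aligned to the mm10 build by HISAT2 (2.1.0 in the submitters' processing notes), multimapping reads were dropped, and featureCounts (2.0.0) gave a count for each gene. They deposited raw counts without normalization. The annotation and strand setting are not given in the sources used here. Library totals ranged from 15280166 to 28662608 counts. The low level of Omd in run 1 left it with few reads at these totals.

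The 36 libraries were grouped by genotype, treatment and run from the labels into 12 groups of 3. Counts were scaled by TMM and filtered by filterByExpr (15489 genes, 99.93% of counts), and contrasts within a run were tested with the quasi-likelihood F test of edgeR 4.0.16 (limma 3.58.1, R 4.3.3) with Benjamini-Hochberg adjustment over all genes tested. The study fitted run plus condition with DESeq2, which is an alternative here because a member was to be compared within each run. Calls used an adjusted p of at most 0.05 with no limit on fold change. SEs are the absolute log2 fold change over the square root of F and are approximate. The biological coefficient of variation was 0.0513. The procedure was checked on data simulated with the same dispersion for every gene. For Dex in GRwt/wt of run 2 it recovered 78.7% of simulated log2 changes of 0.5 and 92.7% of those of 1. Genes of larger spread and smaller changes were not simulated, so the check says nothing on members that did not pass. Levels per length used GENCODE M21 exon lengths.

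Alternatives were DESeq2 1.42.0, its size factors, all 32584 genes with a count, the 11959 genes with 10 or more counts in each library, the study's formula, only the libraries compared, a replicate block and each library left out in turn (36 fits). GRko/ko replicate 3 left out in both treatments was added after the data were seen. The 9 members, the gene lists and the marker lists (fibroblast, macrophage, cartilage, tendon, bone, skeletal muscle, adipocyte, endothelium, epithelium and neural) were chosen with earlier results of these data known. All members are named in every comparison. Of each list, the 2 genes with the largest change in each direction among those passing with Dex in GRwt/wt of run 2 are named, and for each member the 3 most correlated genes, of which 1 is not reported here. Xist and Y-linked genes were read to check sex. Plots were made in matplotlib 3.10.9 (Python 3.11.15).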

Additional observations from a re-analysis of the deposited data

Results flagged for a closer look

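In each of 5 lists of partner genes, the gene raised most by Dex in GRwt/wt of run 2 was taken for a test of its response in the mutants of run 1 against GRwt/wt of run 1, and those whose responses differed are given here (edgeR's quasi-likelihood test, adjusted p of at most 0.05, n = 3 per group, each genotype sharing its wild-type libraries). None of the 9 proteoglycans differed in this way. Adamts1, a proteinase that cleaves chondroitin sulfate proteoglycans, responded less in the 3 mutants of run 1, by −1.43 in GRD/D, −1.27 in GRD+L/D+L and −2.19 in GRko/ko on the log2 scale. Col11a1, a minor fibrillar collagen chain, did so by −0.95, −1.08 and −1.76 in the same order. B4galt1, which adds galactose to keratan sulfate, did so by −0.49, −0.51 and −0.67. Ccn2 responded less in GRD+L/D+L (−0.38) and GRko/ko (−0.53). The sulfotransferase gene Chst13 responded less in GRko/ko (−2.56), while in GRD/D and GRD+L/D+L its difference did not pass. GRL/L is left out because it shares run 2 with the libraries in which these genes were chosen.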

How the results depend on the processing

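No member changed its direction in a call under any alternative. The counts of members passing moved as follows. Without a filter on low counts (32584 genes) 1 member passed for Dex in GRwt/wt of run 1, 2 in GRD/D, 1 in GRD+L/D+L, 3 in GRko/ko and 6 each in GRwt/wt of run 2 and in GRL/L, 3 for the vehicle level of GRD/D and 4 for that of GRL/L, and 1 and 2 for the response differences of GRD/D and of the runs, and 110 genes in all passed for Dex in GRko/ko. With the study's formula 3 passed for Dex in GRwt/wt of run 1 (Ogn, Omd and Aspn), where both wild types are 1 condition. With DESeq2 2 passed in GRwt/wt of run 2 and 2 in GRL/L. With only the libraries compared, 1 passed in GRwt/wt of run 1, 6 in GRL/L, 0 for the vehicle level of GRD/D, 4 for that of GRL/L and 1 for the response difference of GRD+L/D+L. Leaving out each library in turn gave 0 to 1 members for Dex and for the vehicle level in GRD/D. The cause of these moves was not tested.

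The replicate numbers did not pair the libraries: of 18 pairs of vehicle and Dex libraries with the same number, 1 deviated together with a correlation above 0.1, and 7 correlated best with their own number. With the replicate block, 1 member passed for Dex in GRwt/wt of run 1, Aspn (adjusted p = 0.0389), 4 in GRL/L, where Ogn passed (0.00621), and 1 for the response difference of the runs, Aspn (0.0368), and the other counts were as reported. GRL/L and GRwt/wt of run 2 share no number, so no paired fit of their vehicle levels was possible.

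Counts over all genes moved by more than 1.5 times in these cases. The study's formula gave 5207 genes against 2159 for Dex in GRwt/wt of run 1, and 1105 against 509, 1227 against 501, 2310 against 1314 and 115 against 286 for the response differences of GRD/D, GRD+L/D+L, GRko/ko and GRL/L. Only the libraries compared gave 693 against 1838 and 1507 against 774 for Dex in GRD/D and GRD+L/D+L, 632 against 1479 for the vehicle level of GRD/D and 885 against 501 for the difference of GRD+L/D+L. Without Dex replicate 2, GRD/D had 1129 genes, without GRwt/wt replicate 3 the vehicle level of GRD/D 934, without GRL/L replicate 1 that of GRL/L 1170 against 1757, and without vehicle replicate 5 of GRwt/wt the difference of GRL/L 190. Dex in GRko/ko gave 0 genes, 859 at an unadjusted p below 0.05, and 5 to 6 without single libraries. The results for Omd in run 1 are limited by its low read counts.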

Other observations

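Adamts1, the list gene with the smallest adjusted p among those just named, was raised by Dex in 5 of 6 genotype and run combinations. Its log2 fold change was 2.18 ± 0.06 (SE, n = 3 against 3) in GRwt/wt of run 1, 1.64 ± 0.05 in GRwt/wt of run 2, 1.29 ± 0.05 in GRL/L, 0.91 ± 0.06 in GRD+L/D+L and 0.75 ± 0.06 in GRD/D, and −0.01 ± 0.06 in GRko/ko, where it did not pass (adjusted p = 0.996 by edgeR). Chst1, a keratan sulfate sulfotransferase, fell in the same 5 combinations, by −1.11 ± 0.11 and −0.97 ± 0.12 in the wild types, −0.69 ± 0.12 in GRL/L, −0.83 ± 0.10 in GRD+L/D+L and −1.04 ± 0.10 in GRD/D. These values were picked after they were seen.

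The summed levels of further marker lists ranged over the groups from 33.1 to 77.6 CPM for bone, 3.63 to 87.2 CPM for adipocytes, 4.04 to 17.9 CPM for endothelium and 35.9 to 68.3 CPM for neural cells.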
